A study of Gallus gallus with 24 samples.

Results

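TXN, PRDX6, PON2 and EPHX1 are 4 genes of redox and epoxide defence, and they were taken by feature ID (THIO_CHICK, PRDX6_CHICK, PON2_CHICK and EPHX1) from the 17934 features of the count table. All 4 passed the filter on low counts, as did 11187 features in all. They had been chosen by their measured RNA levels, which differed between the fat and the lean line in these same birds, and so that difference is given as a description and without a test. The samples were abdominal fat of cockerels at 7 weeks of age, 4 from the fat line (FL) and 4 from the lean line (LL), 2 lines bred in opposite directions for the weight of abdominal fat. The line of each sample was taken from its title, source name and line field, while the description field of the 12 LL samples names the fat line. All birds were raised under a standard broiler protocol, and the labels name no treatment other than the selection of the lines. Each bird gave 1 library, and the count table holds 3 runs of each library.

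Thioredoxin, encoded by TXN, is a small protein that reduces disulfides in other proteins and passes electrons to the peroxiredoxins. Peroxiredoxins break down hydrogen peroxide and lipid peroxides with a reactive cysteine, and PRDX6 differs from most of them in using glutathione as the reductant and in carrying a phospholipase activity. Paraoxonase 2 (PON2) is a lactonase bound to intracellular membranes that limits lipid peroxidation in mammalian cells, and microsomal epoxide hydrolase (EPHX1) adds water to reactive epoxides made by cytochrome P450 enzymes. Fat stores a large mass of lipid that can be oxidised, and its synthesis of fatty acids draws on the same NADPH that keeps thioredoxin and glutathione reduced.

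Replicates are birds (n = 4 per line), and the counts of a bird are the sum over its 3 runs. These sums were 4299772 to 10878211 counts in FL birds and 5548867 to 12876999 in LL birds. Markers of adipocytes were high in every bird, with a summed level of 12400 to 15460 CPM (counts scaled to the size of the library) in FL and 10860 to 14570 in LL. The adipocyte markers tested were 8 features, with 2 for PLIN1. The mean was higher in FL in 6 of them, the 2 of PLIN1 included, and in LL in 2. The 1 that passed the test described below was LPIN1, higher in FL without overlap (log2 fold change 0.64, edgeR adjusted p = 0.03218). FL replicate 4 stood apart from the other birds. Its 3 tested markers of skeletal muscle summed to 15740 CPM, against 73.46 to 119 in the other 7 birds, so the 4 genes are also given without it, as are the list genes named below whose log2 fold change it moved by more than 1.5 times. A summed level of 7 mesothelial and epithelial markers was 77.88 to 135.7 CPM in LL replicates 2, 3 and 4, against 50.68 in LL replicate 1 and 39.24 to 61.06 in the FL birds. All 7 had a lower mean in FL, with a median log2 fold change of -2.51, and 0 passed. LRRN4, the marker with the highest level, had only -0.17. EPCAM had 3 or fewer counts in 4 birds, UPK3B in 3, and KRT8 and CDH1 in 2 each. MSLN and WT1 had more than 3 counts in every bird, at -2.51 and -0.74 (edgeR adjusted p = 0.149 and 0.2009). Of 8 fibroblast and preadipocyte markers, 7 had a lower mean in FL and 0 passed, and the summed level of all 8 was 18000 to 31490 CPM in FL and 19650 to 27220 CPM in LL. Most of that sum was COL1A2, the 1 marker with a higher mean in FL (log2 fold change 0.09). PDGFRA, a receptor that marks preadipocytes, had 100.4, 158.7, 132.9 and 140.1 CPM in FL birds and 217.4, 201.3, 183.8 and 226.3 CPM in LL birds, without overlap (log2 fold change -0.64, edgeR adjusted p = 0.1057). FAP was at -0.51 (edgeR adjusted p = 0.2486) and PDGFRB at -0.34 (edgeR adjusted p = 0.2959). The 5 macrophage markers tested summed to 739.3 to 866.7 CPM in FL and 702.6 to 752.7 CPM in LL. Of them 3 had a higher mean in FL and 2 in LL, and 0 passed. CSF1R was higher in every FL bird (log2 fold change 0.185, edgeR adjusted p = 0.4411) and MARCO was at -1.77 (edgeR adjusted p = 0.3641). The summed levels of endothelial and of lymphocyte markers overlapped between the lines. The part of these cell types in the levels of the 4 genes was not tested.

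Levels are CPM after normalization by trimmed mean of M values (TMM), and ± is the SD over the 4 birds of a line. After TMM, every FL bird was above every LL bird in all 4 genes, as it was in 421 of the 11187 features tested (3.76%). Every LL bird was above every FL bird in 4.34%. On the total counts of each bird, without TMM, the lines overlapped in TXN (358 of 4299772 counts in FL replicate 2, 566 of 6717692 in LL replicate 1). They also overlapped there in EPHX1 (363 of 10878211 in FL replicate 4, 253 of 7040014 in LL replicate 4). The difference exceeded 1.2-fold in all 4, as it did towards FL in 14.2% of features. At an adjusted p at or under 0.05 by edgeR's quasi-likelihood test and a fold of at least 1.2, 41 features differed between the lines (0.366%), 23 of them higher in FL (0.206%). The 4 genes had been chosen by this contrast, and their own calls are not given. In whole fat, more RNA per cell and more cells of a type that carries the RNA cannot be told apart.

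TXN (chromosome Z, 65067172 to 65073752 in build 2.1, flanks included) had 89.93, 81.87, 93.18 and 101.6 CPM in FL replicates 1 to 4 and 80.58, 59.17, 61.73 and 70.15 CPM in LL replicates 1 to 4. The lines came close to each other, since FL replicate 2 and LL replicate 1 were separated by little more than 1 CPM. The means were 91.64 ± 8.16 CPM in FL and 67.91 ± 9.664 CPM in LL. The log2 fold change of FL over LL was 0.43 (SE 0.119), which is 1.351-fold, the smallest of the 4 genes. Without FL replicate 4, which had the highest TXN level, it was 0.38.

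PRDX6 (chromosome 8, 4336439 to 4344524) had 825.5, 769, 911.3 and 1044 CPM in FL replicates 1 to 4. In LL replicates 1 to 4 it had 380.7, 618.3, 604.9 and 573.6 CPM. LL replicate 1 lay well under the other LL birds, and FL replicate 4 was again the highest. The means were 887.6 ± 119.8 CPM in FL and 544.4 ± 110.7 CPM in LL, a log2 fold change of 0.70 (SE 0.165) or 1.631-fold. It was 0.62 without FL replicate 4 and 0.57 without LL replicate 1. The counted region of PRDX6 shares 289 bases with that of TADA1L, which had 1092 counts over all birds against 45928 for PRDX6.

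PON2 (chromosome 2, 23811351 to 23827903) had 245.7, 244.2, 289.3 and 219.1 CPM in FL replicates 1 to 4 and 136.8, 157.1, 174.4 and 142.4 CPM in LL replicates 1 to 4. Here the gap between the lines was wide against the spread within them. The means were 249.6 ± 29.16 CPM in FL and 152.7 ± 16.84 CPM in LL, a log2 fold change of 0.71 (SE 0.118) or 1.634-fold. Without FL replicate 4 it was 0.765. The deposited feature is named for PON2, while RefSeq gives this chicken gene the symbol PON1 with PON2 as a synonym.

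EPHX1 (chromosome 3, 18342963 to 18354954) had 55.59, 45.51, 43.94 and 36.8 CPM in FL replicates 1 to 4 and 31.46, 30.47, 27.35 and 34.94 CPM in LL replicates 1 to 4. FL replicate 4 was the lowest FL bird for EPHX1 and for PON2, the reverse of its place for TXN and PRDX6. The means were 45.46 ± 7.744 CPM in FL and 31.06 ± 3.127 CPM in LL, a log2 fold change of 0.55 (SE 0.14) or 1.466-fold, and it was 0.64 without FL replicate 4. EPHX1 had the fewest reads of the 4 genes, 172 to 510 per bird.

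**Figure D1:**
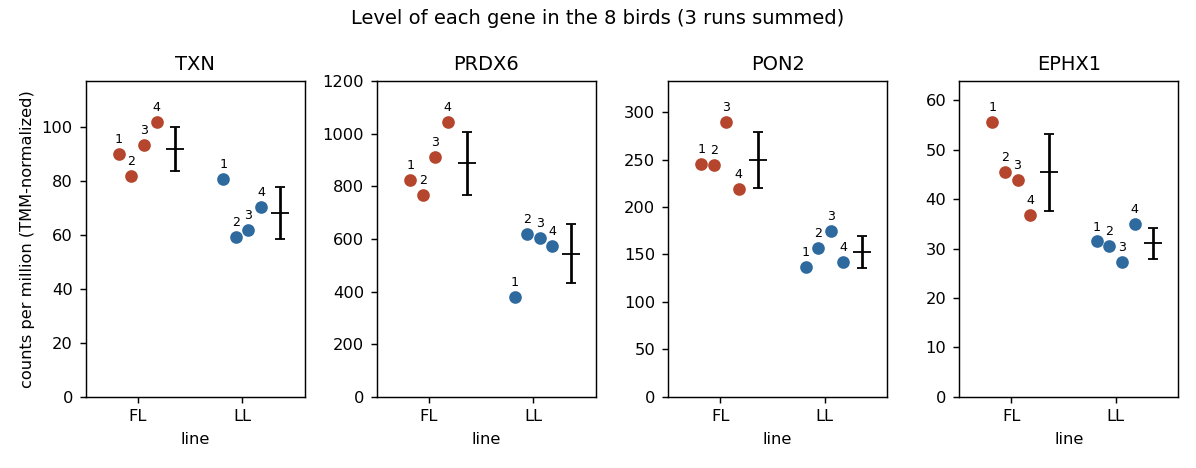
CPM (TMM-normalized, linear axis from 0) of TXN, PRDX6, PON2 and EPHX1 in the 4 FL and 4 LL birds, numbered by replicate, with the mean and SD of each line as a black bar. In each panel the lowest FL bird is above the highest LL bird, by least in TXN (81.87 against 80.58 CPM) and EPHX1 (36.8 against 34.94 CPM).

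The runs of a library can also be compared with each other. Scheme C, with 8 libraries on a lane, gave runs 2 and 3 of each library. Scheme A, with 4 libraries on a lane, gave the first run of 6 birds, and Scheme B, with 1 library on a lane, gave that of FL replicate 4 and LL replicate 3. According to the paper, the libraries of Scheme B were sequenced again because their Scheme A data had low quality scores and were left out. Scheme B and a trait of these libraries therefore cannot be told apart, and FL replicate 4 is also the bird with high muscle markers. The schemes are as the paper lists them per run, and the sample labels describe them in another order. Within a bird, the pair of Scheme C runs differed in the counts of the 4 genes by a chi-square per degree of freedom of 0.00362 to 3.236, about what sampling gives.

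The first run differed from the Scheme C runs in PRDX6 in every bird, with a chi-square per degree of freedom of 11.61 to 27.08 over the 3 runs. The ratio of first-run CPM to Scheme C CPM, each on the total of the run itself, was 0.8137 to 0.8613 in the 3 FL birds of Scheme A and 0.806 to 0.8477 in the 3 LL birds. In the birds of Scheme B it was 1.138 in FL replicate 4 and 1.131 in LL replicate 3. PRDX6 was thus lower in Scheme A and higher in Scheme B than in Scheme C, alike in both lines. Of 10948 features with a ratio in all 8 birds, 968 (8.842%) were likewise below 1 in all 6 Scheme A birds and above 1 in both Scheme B birds, and 1769 (16.16%) had the opposite pattern.

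For EPHX1 the ratios of the lines did not overlap within Scheme A. Its ratio of first run to Scheme C was 1.567 to 1.993 in the 3 LL birds of Scheme A, whereas it was 0.9523 to 1.23 in the 3 FL birds of Scheme A. In the birds of Scheme B it was 1.019 (FL) and 1.033 (LL). Over the 3 runs, the chi-square per degree of freedom of EPHX1 was 5.905, 10.12 and 6.57 in LL replicates 1, 2 and 4. That is more than sampling gives, and in the other birds it was 0.0565 to 1.665. The mean log2 ratio over the Scheme A birds was 0.80 in LL and 0.09 in FL, a difference of 0.71 (two-sided exact permutation p = 0.1, n = 3 per line, adjusted p = 0.2 over the 4 genes). With 3 birds against 3 the smallest p possible is 0.1. LL ratios were all above FL ratios in 466 of the 10948 features (4.256%). TXN had the same order, with 1.14 to 1.256 in LL and 0.9319 to 1.096 in FL, and the ratios of PON2 stayed between 0.9112 and 1.008 in all 8 birds.

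**Figure D2:**
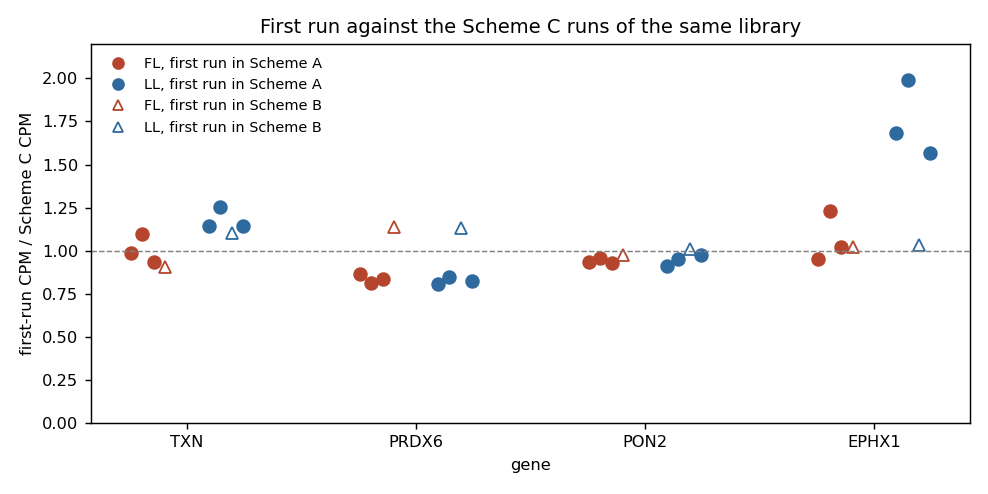
Ratio of first-run CPM to Scheme C CPM (linear axis from 0, dashed line at 1) for each bird, with circles for a first run in Scheme A and open triangles for Scheme B. PRDX6 is at 0.806 to 0.8613 in Scheme A and at 1.131 and 1.138 in Scheme B, and EPHX1 is at 1.567 to 1.993 in the LL birds of Scheme A only.

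The gap of EPHX1 between the lines therefore depended on the runs used. From the Scheme C runs, EPHX1 had 56.99, 41.48, 43.66 and 35.33 CPM in FL replicates 1 to 4 and 22.4, 21.41, 26.25 and 28.96 CPM in LL replicates 1 to 4. The lines did not overlap and the log2 fold change was 0.84 (SE 0.161). From the first runs, EPHX1 had 53.61, 49.77, 43.85 and 38.91 CPM in the FL birds and 36.76, 41.76, 28.44 and 44.59 CPM in the LL birds. There the lines overlapped and the log2 fold change was 0.30 (SE 0.174). Within the 6 birds of Scheme A alone it was 0.26 (SE 0.141) from the first runs and 0.96 (SE 0.175) from the Scheme C runs of the same libraries.

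After TMM, the other genes kept every FL bird above every LL bird in both kinds of run. TXN did so by little in the first runs (84.79 CPM in FL replicate 2, 84.16 CPM in LL replicate 1). On the totals of the first runs, without TMM, these 2 birds had 87.15 and 88.13 CPM, so the lines overlapped. PRDX6 had a log2 fold change of 0.68 (SE 0.126) in Scheme C and 0.72 (SE 0.216) in the first runs, and PON2 had 0.71 (SE 0.11) and 0.69 (SE 0.13). TXN had 0.56 (SE 0.126) in Scheme C and 0.33 (SE 0.125) in the first runs, and in the first runs of the 6 Scheme A birds it had 0.21 (SE 0.12). Which of the schemes gives the better measure of TXN and EPHX1 was not tested.

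**Figure D3:**
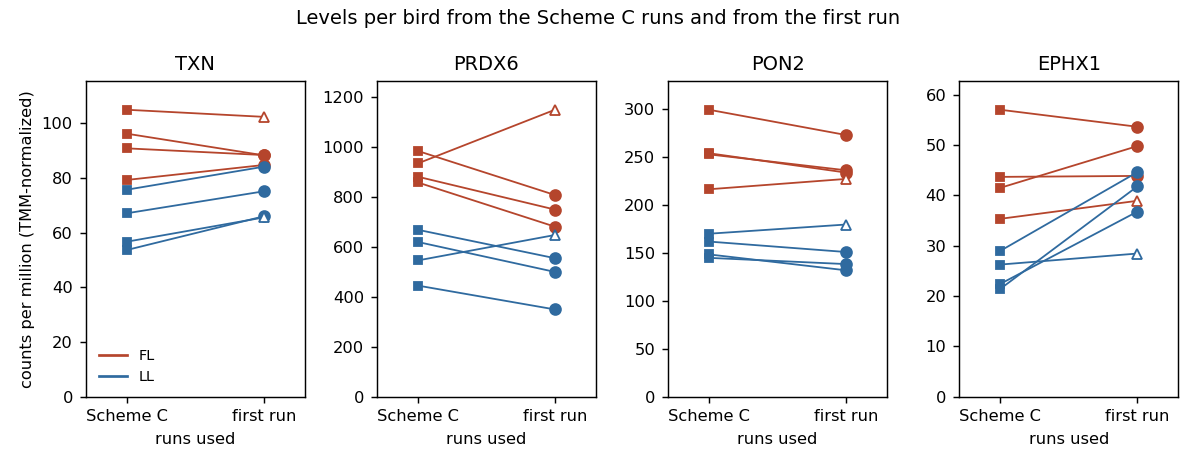
CPM (TMM-normalized within each kind of run, linear axis from 0) of the 4 genes per bird from the Scheme C runs (squares) and from the first run (circles for Scheme A, open triangles for Scheme B), with a line for each bird. In EPHX1 the 3 LL birds of Scheme A lie between 21.41 and 28.96 CPM in Scheme C and between 36.76 and 44.59 CPM in the first run, where 2 of them are above the lowest FL bird (38.91 CPM), while PON2 keeps the lines apart.

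Birds of a line differ from each other too. A choice of genes by the line difference can favour a small spread within lines, so the SDs below are a description. After the mean of the line was taken from log2(CPM + 1), the SD within lines was 0.27 for PRDX6, 0.20 for EPHX1, 0.17 for TXN and 0.16 for PON2. PRDX6 in LL replicate 1 was 0.49 under its line mean, the largest of the 32 deviations, while TXN in the same bird was 0.25 above its line mean. EPHX1 was 0.30 above the mean in FL replicate 1 and fell by 0.28 from it in FL replicate 4.

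In none of the 6 pairs of genes was covariation within lines detected by the exact permutation test over all rearrangements of birds within lines. With 8 birds and the line means removed, this test can miss moderate covariation, so its absence is not shown. Pearson's r ranged from -0.59 to 0.32 over 8 birds. The lowest was that of TXN and PON2 (r = -0.59, two-sided permutation p = 0.1667, adjusted p = 0.7109 over the 6 pairs; Spearman's rho = -0.62, p = 0.1562, adjusted p = 0.4688). Without LL replicates 1 and 2, the birds farthest from the median of TXN, r was -0.50. The highest was that of PRDX6 and PON2 (r = 0.32, permutation p = 0.474, adjusted p = 0.7109; rho = 0.05, p = 0.9549, adjusted p = 0.9549), and without LL replicate 1 and FL replicate 2 it was -0.17. PRDX6 and EPHX1 had r = -0.42 (permutation p = 0.2795, adjusted p = 0.7109) and rho = -0.64 (p = 0.1267, adjusted p = 0.4688). Without LL replicate 1 and FL replicate 2, the r of PRDX6 and EPHX1 was -0.84. TXN and PRDX6 had r = -0.40 (permutation p = 0.4635, adjusted p = 0.7109), which turned to 0.60 without LL replicates 1 and 2.

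**Figure D4:**
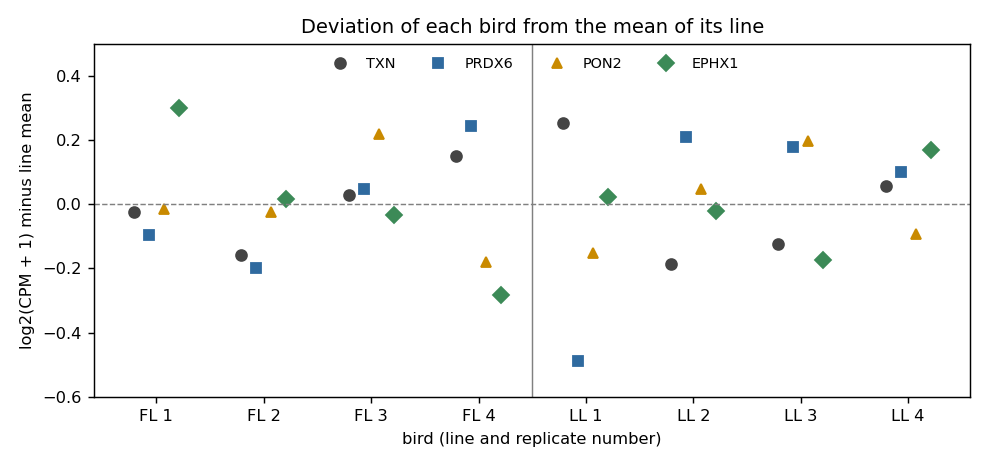
Deviation of log2(CPM + 1) from the mean of the bird's own line for TXN, PRDX6, PON2 and EPHX1 in the 8 birds, with the dashed line at 0. The genes do not keep a common order over the birds: in LL replicate 1 TXN is at 0.25 and PRDX6 at -0.49, and in FL replicate 4 PRDX6 is at 0.24 and EPHX1 at -0.28.

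Likeness of profiles was measured as the root mean square distance between log2(CPM + 1) values over the 8 birds, each profile centred on its own mean. The distance holds the difference between the lines, so it is a description. Among the 4 genes, PRDX6 and PON2 were the closest pair (0.231), where PON2 ranked 83 among all tested features for PRDX6 and PRDX6 ranked 141 for PON2. The 5 features nearest to TXN were TAF13 (0.071), FARS2, PSMB1, HIBCH and ENSGALG00000023275 (0.093). TAF13 encodes a subunit of transcription factor TFIID, PSMB1 a subunit of the proteasome, and HIBCH an enzyme of valine breakdown.

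The 5 features nearest to PRDX6 were PIGX (0.106), BPI, TLCD1, GBA2 and LOC425086 (0.136). PIGX acts in the synthesis of GPI anchors and GBA2 is a glucosylceramidase. Nearest to PON2 were CITED3 (0.102), SCUBE1, NFASC, ENSGALG00000023719 and GPC3 (0.143), of which GPC3 encodes a cell surface proteoglycan. Nearest to EPHX1 were PLSCR1 (0.083), FAM177A1, PSAP, LGALS8 and STX7 (0.109), where PSAP encodes the precursor of the lysosomal saposins and STX7 a syntaxin of late endosomes. PSAP had 3431 to 4456 CPM in FL birds and 2573 to 3154 CPM in LL birds. FL replicate 4 was the lowest FL bird in all 5 features nearest to EPHX1, as in EPHX1 itself, which their choice by profile favours.

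The 4 genes were set beside other genes of the same pathways, in 10 lists that leave the 4 genes out. The lists were drawn from 117 symbols, the 4 genes among them. They were written with earlier results of these data known, so their counts and medians beside all features are a description. Without the 4 genes, 79 features matched a symbol and 74 were tested, and some symbols matched more than 1 feature. ME1, the cytosolic malic enzyme that makes NADPH for fatty acid synthesis, rose in FL, and no other list gene passed the test in either direction. That is 1 of 74, beside 41 of 11187 features (0.366%). At an unadjusted p under 0.05, 16 list genes were higher in FL and 9 higher in LL, where 13.1% of all features tested reached that p. The median log2 fold change of the list genes was 0.12, beside 0.00 over all tested features (0.002). FL birds were all above LL birds in 8 list genes and all below them in 2, where 3.76% and 4.34% of all features did so.

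ME1 had 102.4, 88.73, 79.48 and 112.8 CPM in FL replicates 1 to 4 and 43.57, 55.28, 54.53 and 56.62 CPM in LL replicates 1 to 4. The lines were far apart, and ME1 was higher in FL by 0.87 on the log2 scale (SE 0.133, adjusted p = 0.03218 by edgeR). The call was lost without FL replicate 1, 2 or 3, without LL replicate 2, 3 or 4 and in the first runs alone, with adjusted p up to 0.1108. The other 5 tested genes of NADPH supply also had higher means in FL, from 0.03 for the transketolase TKT on the log2 scale, and none passed. TKT was at -0.03 without FL replicate 1 and at -0.02 without FL replicate 4.

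In the list of the thioredoxin and glutaredoxin system, 9 genes were tested and 0 passed, with 5 means higher in FL and 4 higher in LL (median log2 fold change 0.10). No member of this list had an unadjusted p under 0.05, which 13.1% of all features tested reached. With 9 genes, this does not set the list apart. The mitochondrial thioredoxin reductase TXNRD2 had 6.99 ± 1.052 CPM in FL and 7.625 ± 1.792 CPM in LL, and its log2 fold change of -0.12 was -0.02 without FL replicate 4. The values ranged from a log2 fold change of -0.35 for the mitochondrial glutaredoxin GLRX2 (edgeR adjusted p = 0.5828) to 0.32 for TXNL1 (edgeR adjusted p = 0.3884).

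The 3 other peroxiredoxins tested, PRDX1, PRDX3 and PRDX4, had higher means in FL and none passed. PRDX1, a cytosolic form, was at 0.29 on the log2 scale (SE 0.161, edgeR adjusted p = 0.472). PRDX3, the mitochondrial form, had 0.35 (SE 0.144, edgeR adjusted p = 0.3283), and PRDX4, the form of the endoplasmic reticulum, had 0.33 (SE 0.144, edgeR adjusted p = 0.3599). Their values over the lines overlapped in each case. PRDX6 had been chosen by its line difference, so its larger change does not set it apart from these 3.

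The superoxide dismutases and catalase were 4 tested genes, all with higher means in FL, and 0 passed (median 0.25). SOD1, the cytosolic superoxide dismutase, had 211.9, 215.2, 226.9 and 250 CPM in FL birds and 189.9, 191.3, 159.5 and 187.1 CPM in LL birds, without overlap (log2 fold change 0.31, edgeR adjusted p = 0.2111). Catalase (CAT) overlapped between the lines, at 853.4 ± 77.47 CPM in FL and 740.2 ± 85.47 CPM in LL. The lowest value of the list was that of CCS, the copper chaperone of SOD1, at 0.07 (edgeR adjusted p = 0.9511), which turned to -0.01 without FL replicate 3 (-0.008) and to -0.11 without LL replicate 1.

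Genes of glutathione synthesis and glutathione peroxidases had a median of -0.19, and 0 of 11 passed. GPX3, the secreted glutathione peroxidase, had 597.6, 541.5, 634.2 and 1050 CPM in FL birds and 899.1, 945.2, 1062 and 972.3 CPM in LL birds. FL replicate 4 was thus within the range of the LL birds, and without it GPX3 was higher in LL (edgeR adjusted p = 0.0346), against 0.3384 with it. GPX4, which reduces lipid hydroperoxides in membranes, had 181 CPM in FL replicate 4, against 96.27 to 110.5 CPM in the other FL birds and 89.27 to 96.02 CPM in LL (edgeR adjusted p = 0.424). Without FL replicate 4, the log2 fold change of GPX4 went from 0.37 to 0.12 (0.115) and that of GPX3 from -0.46 to -0.715. The part of the muscle RNA of FL replicate 4 in these values was not tested. The list ran from GGT1 at -0.72 (edgeR adjusted p = 0.3679) to GCLM, the modifier subunit of glutamate-cysteine ligase, at 0.45 (edgeR adjusted p = 0.2719).

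Of 12 glutathione transferases, 9 had a higher mean in FL, 0 passed and the median was 0.34. Close copies in this family can share reads that the counting left out, so their values are uncertain. GSTA1_CHICK had 40.18 ± 10.55 CPM in FL and 23.91 ± 4.02 CPM in LL without overlap (log2 fold change 0.75, edgeR adjusted p = 0.141). GSTT1 had 0.67 (edgeR adjusted p = 0.168), and GSTT1_CHICK, another feature of the same symbol, had 0.33 (edgeR adjusted p = 0.4874). GSTA2_CHICK had 0.85 (edgeR adjusted p = 0.3661), and the microsomal MGST1 had 0.35 (edgeR adjusted p = 0.2286). The lines overlapped in each of these features. GSTA3_CHICK had 0.33 (edgeR adjusted p = 0.4283), and 0.17 without FL replicate 4. The other end was HPGDS, the prostaglandin D synthase of this family, at -0.67 (edgeR adjusted p = 0.3172).

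EPHX2 and LTA4H were the tested relatives of EPHX1 in the lists, and neither passed. EPHX2, the soluble epoxide hydrolase, had 89.6, 97.42, 204 and 71.68 CPM in FL birds and 36.02, 110.7, 136.8 and 91.14 CPM in LL birds. The birds of each line were spread widely and the lines overlapped (0.30 on the log2 scale, SE 0.399, edgeR adjusted p = 0.8072). Single birds set its direction, since EPHX2 was at -0.12 without FL replicate 3, 0.04 without LL replicate 1, 0.47 without FL replicate 4 and 0.55 without LL replicate 3. LTA4H, which hydrolyses the epoxide leukotriene A4, had -0.09 (edgeR adjusted p = 0.7993), and -0.03 without FL replicate 4. LOC421447, which RefSeq names EPHX1L and which was added after its values were seen, had 24.42 ± 3.807 CPM in FL and 30.51 ± 6.442 CPM in LL (log2 fold change -0.32, edgeR adjusted p = 0.4581).

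Quinone, haem and microsomal detoxification genes had 4 higher means in FL and 10 in LL, and 0 of 14 passed (median -0.06). ALDH2, the mitochondrial aldehyde dehydrogenase, was the highest at 0.47 (edgeR adjusted p = 0.1355), with FL birds above LL birds. NQO1, a quinone reductase, was the lowest at -0.70 (edgeR adjusted p = 0.3216), with LL birds above FL birds. It had 3.539 ± 1.152 CPM in FL and 5.923 ± 1.609 CPM in LL.

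Of 9 regulators of the antioxidant response, 7 had a higher mean in FL and 0 passed. MAFF, a small Maf protein that pairs with NRF2 or BACH1 on antioxidant response elements in mammals, had 37.06, 32.7, 51 and 39.95 CPM in FL birds and 20.79, 28.17, 29.32 and 26.24 CPM in LL birds (log2 fold change 0.62, edgeR adjusted p = 0.145). BACH1, a repressor at these elements, had -0.14 (edgeR adjusted p = 0.6864; -0.08 without FL replicate 4), and BACH2 had -0.47 (edgeR adjusted p = 0.2291) with LL birds above FL birds. The 4 tested sources of reactive oxygen ran from XDH, xanthine dehydrogenase, at -0.48 (edgeR adjusted p = 0.3976) to NOX1, an NADPH oxidase, at 0.38 (edgeR adjusted p = 0.5974), and 0 passed. By DESeq2, 5 genes of all the lists were higher in FL, namely ALDH2, GSTA1_CHICK, GSTT1, MAFF and ME1. DESeq2 passed 319 of the 11187 features tested (2.85%) in either direction. TXNIP, KEAP1, PON3 and GPX1 were not analysed here.

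**Figure D5:**
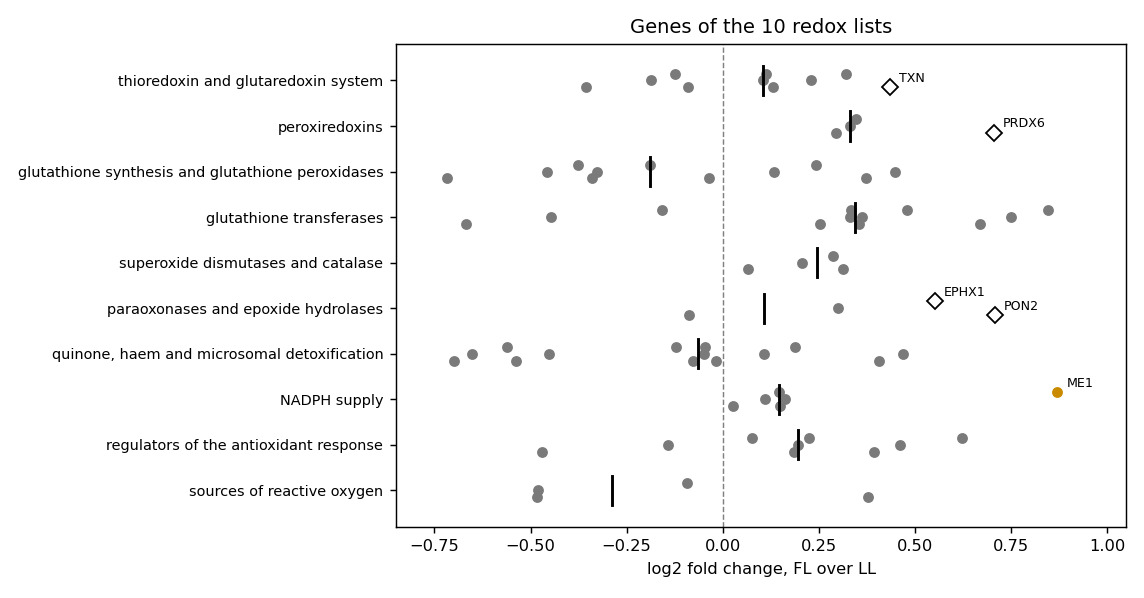
Log2 fold change (FL over LL) of the tested genes of the 10 redox lists, with a black bar at the median of each list without TXN, PRDX6, PON2 and EPHX1, which are open diamonds. ME1 (orange, 0.87) is the list gene that passed the test. The 3 other peroxiredoxins lie at 0.29 to 0.35, and PRDX6, which was chosen by its line difference, lies at 0.70.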

How the data were processed

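The authors made paired-end libraries from total RNA, trimmed the reads and used CLC Genomics Workbench 5.1 to map them, with at most 2 mismatches, on chicken genome build 2.1, and left out reads mapping to several places. The deposited counts are unique exon reads per gene, with 200 nt of flank on each side, for each of the 24 runs and without normalization. The labels give another RNA extraction, RNA amount and kit version than the paper. The 24 normalized run columns, 4 mean columns and 3 columns of the authors' own comparison (fold change, p-value and corrected p-value) were not used.

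Genes and lists were chosen with earlier results of these data known. The 3 counts of a bird were summed, filtered with filterByExpr, normalized with TMM and tested with glmQLFit and glmQLFTest (robust=FALSE) of edgeR 4.0.16 (R 4.3.3), and p-values were adjusted by Benjamini-Hochberg over 11187 features. Alternatives were DESeq2 1.42.0, total count scaling, other filters, Scheme C or first runs only, 24 runs as replicates, the replicate number as a block and each bird left out. Fits of the 6 birds of Scheme A were added after the data were seen. The permutation test of the run ratios of these birds was not planned either. SE is the log2 fold change over the root of F. Intervals from counts cover counting error only, and 3 counts are 0.233 to 0.6977 CPM.

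Features were named by their ID, by pairs of ID and symbol in the supplementary tables, by UniProt entry name or by RefSeq gene number. The text names the 4 genes, every list gene that passed, their nearest relatives by role, the highest and lowest log2 fold change of each list, and the 5 nearest profiles of each gene. Some markers of cell types are also named. The deviations of same-numbered FL and LL birds had correlations of 0.2192, -0.07182, -0.1128 and -0.06411. These were not set against those of differently numbered birds, so whether the numbers pair birds was not tested. The main fit treated the birds as unpaired. Figures were drawn with matplotlib 3.10.9. No promoter or protein sequence was used here.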

Additional observations from a re-analysis of the deposited data

Results flagged for a closer look

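In the FL and LL groups of the 4 genes, the list genes named in the text and the features named under other observations (40 features, 80 groups of 4 birds), 7 had 1 bird farther from the others than the 95% critical value of Dixon's test allows, where chance gives about 1 in 20. Other list genes were not looked at in this way. In FL, GPX4 was 181 CPM in replicate 4 (96.27 to 110.5 in the others) and NQO1 was 1.829 CPM in replicate 2 (3.954 to 4.34). In LL, GPX4 was 89.27 CPM in replicate 1 (95.55 to 96.02), ME1 was 43.57 CPM in replicate 1 (54.53 to 56.62), XDH was 16.12 CPM in replicate 2 (18.89 to 19.08), GLRX2 was 3.082 CPM in replicate 3 (4.783 to 4.841) and SOD1 was 159.5 CPM in replicate 3 (187.1 to 191.3). The groups of TXN, PRDX6, PON2 and EPHX1 had no such bird.

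PRDX6 moved in opposite directions with the scheme of the first run. Its ratio of first run to Scheme C was at most 0.8613 in the 6 birds of Scheme A and at least 1.131 in the 2 birds of Scheme B. This difference was not tested, and Scheme B cannot be told apart from the 2 libraries it held.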

How the results depend on the processing

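TXN, PRDX6, PON2 and EPHX1 had a positive log2 fold change of FL over LL under all 16 alternatives. With 1 bird left out it was 0.38 to 0.53, 0.57 to 0.78, 0.63 to 0.78 and 0.44 to 0.64, in that order. On total counts without TMM, the birds of the lines overlapped in TXN and EPHX1. EPHX1 moved to 0.84 in Scheme C and 0.30 in first runs, and, in fits added after the data were seen, to 0.26 in the first runs and 0.96 in the Scheme C runs of the 6 Scheme A birds, where TXN had 0.21 in the first runs; the cause was not tested. The 41 features that passed became 319 with DESeq2, 27 with no filter on low counts, 133 in Scheme C, 1 in first runs, 1327 with 24 runs as replicates, where a bird counts 3 times, and 2 to 65 with 1 bird left out (65 without FL replicate 4, 2 without FL replicate 3 or LL replicate 2). Higher in LL were 43.9% of the calls, and 56.52% after total count scaling, which moved the median log2 fold change to -0.06 (-0.055). List genes that passed went from 1 to 5 with DESeq2 (2 transferases, 1 detoxification gene, 1 regulator and ME1), to 0 in first runs, also for NADPH supply, and to 0 to 2 with 1 bird left out (0 to 1 for NADPH supply and for the glutathione list). With 24 runs they were 29, namely 1 of the thioredoxin list, 3 peroxiredoxins, 4 of the glutathione list, 8 transferases, 2 dismutases, 4 detoxification genes, 4 regulators and 2 sources of reactive oxygen, with ME1. Of all features tested, 2.85% passed with DESeq2 and 14% with 24 runs. With the replicate number as a block, 8 features passed, 0 list genes and 0 of NADPH supply. The edgeR adjusted p of ME1 was 4.05e-07 (24 runs) to 0.1108 (without LL replicate 4) over the alternatives.

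No pair passed the permutation test of covariation within lines with DESeq2 size factors, total count scaling, Scheme C or first runs only. The same held with raw CPM, a pseudocount of 10 or 1 bird left out. The filters, the 24 runs and the block were not run for covariation. The r changed sign for TXN and EPHX1 with total count scaling (0.22), for PRDX6 and EPHX1 in Scheme C (0.00, from 0.004), and for PON2 and EPHX1 with total count scaling (0.23), in Scheme C (0.25) and on raw CPM (0.041). With 1 bird left out, r was -0.74 to 0.60 for TXN and PRDX6, -0.84 to -0.43 for TXN and PON2, -0.24 to 0.36 for TXN and EPHX1, -0.13 to 0.69 for PRDX6 and PON2, -0.71 to -0.22 for PRDX6 and EPHX1, and -0.74 to 0.18 for PON2 and EPHX1. With 334 to 1002 counts of TXN and 172 to 510 of EPHX1 per bird, their ratios between runs carry more counting error than those of PRDX6. In the LL birds of Scheme A, the runs of EPHX1 still differed by more than sampling gives (chi-square per degree of freedom 5.905 to 10.12).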

Other observations

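Some genes of these pathways have no feature of that name, but an unnamed feature lies between the same neighbours where RefSeq orders them. Q90834_CHICK lies where RefSeq orders NFE2L2 and 1 more gene, and had 82.75 ± 15.99 CPM in FL and 85.75 ± 10.35 CPM in LL (edgeR adjusted p = 0.9214, n = 4 per line; log2 fold change -0.05, and 0.07 without FL replicate 4). Q90Y34_CHICK lies where RefSeq orders SOD2 and had 113.3 ± 12.41 and 93.33 ± 19.62 CPM (edgeR adjusted p = 0.4753). Q5F3B7_CHICK lies where RefSeq orders TXNRD1 and had 52.11 ± 13.74 and 44.01 ± 5.555 CPM (edgeR adjusted p = 0.612). Q5ZJY6_CHICK lies where RefSeq orders TXN2 and had 65.74 ± 11.76 and 53.39 ± 8.709 CPM (edgeR adjusted p = 0.4304; log2 fold change 0.30, and 0.18 without FL replicate 4). The lines overlapped in all 4 features, and none was counted in the lists.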
